A study of Mus musculus with 12 samples.

Results

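The comparison described here is that of mutant E12 with wild-type E12 in mouse B cells that had not received anti-IgM. It rests on 6 of the 12 arrays of the series, chosen by their titles: 3 arrays of untreated cells with mutant E12 and 3 of untreated cells with wild-type E12. The series title calls the mutant calmodulin-resistant; which residues were altered is not stated in the labels. Both groups were splenic B cells from C57BL/6 mice aged 8 weeks, and both carried a heterozygous deletion of the E2A gene, so that a normal E2A copy remained beside the retroviral one. Both were activated for 14 h with CD40L (200 ng/ml) and IL-4 (5 ng/ml), infected in rounds of 12 h with LPS (200 ng/ml) present, and kept for another 22 h. Infected cells were sorted on the GFP of the retrovirus, which leaves cells of any type that took up the virus. The other 6 arrays held the same pair of forms after 3 h with anti-IgM (2.5 μg/ml), an antibody that crosslinks the antigen receptor. They are used as a second measurement of the difference between the forms, which may not be independent of the first.

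E12 is 1 of the basic helix-loop-helix proteins made from Tcf3, the gene also called E2A. It binds DNA sites called E-boxes as a dimer and is required for early B cell development and for the B lineage programme. Calmodulin, a calcium sensor, can bind the basic DNA-binding region of E proteins and block their binding to DNA, and Id proteins block it by forming inactive dimers. B cells activated by CD40L, IL-4 and LPS divide, take up more nutrients and can begin to turn into antibody-secreting plasma cells, a change that lowers many B cell surface and signalling genes and raises the secretory machinery of the endoplasmic reticulum (ER).

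The values are log2(intensity + 50) after all 12 arrays were quantile-normalized together, and a difference is mutant minus wild type in log2 units. The submitters' values had been normalized separately for the forms: the median intensity was 6.40 on each mutant array and 6.93 on each untreated wild-type array. Effects of the form and of the set in which an array was normalized cannot be told apart. A gene was called at an adjusted p under 0.05 (limma, Benjamini-Hochberg over 10050 genes). Nothing in the labels says that replicates came from separate mice or cultures, so these p-values measure the spread between the arrays only. In bulk RNA, fewer cells of a type and less RNA per cell cannot be told apart. Arrays correlated across genes at 0.978 to 0.991 within the mutant group and at 0.978 to 0.996 within the wild-type group, against 0.917 to 0.949 between the groups.

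Some libraries stood apart. Xist, the RNA of the inactive X chromosome of female cells, had log2 levels of 5.56, 8.69 and 6.78 on the mutant arrays, against 5.63, 5.61 and 5.52 on the wild-type arrays. It passed the detection limit on 2 of 3 mutant arrays and on 0 of 3 wild-type arrays. The Y-linked gene Eif2s3y was at 9.12, 8.57 and 9.58 with the mutant and at 10.28, 10.14 and 10.05 with wild type. The mutant libraries thus differed in sex-linked RNA from each other and from the wild-type libraries, and the part of this in the results was not tested. With only the arrays at background for Xist, which leaves mutant replicate 1 alone in its group and assumes that it varies like the others, 3665 genes were called, of which 3168 were among those of the full comparison with the same direction. Wild-type replicate 1 also differed from the other wild-type arrays, for example in the lysozyme gene Lyz1 (10.45, against 8.59 and 8.62). Without it 3957 genes were called, 3598 of them shared with the same direction.

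Of the 10050 genes, 4283 were called (42.6%). With mutant E12, 2050 genes were higher (20.4%) and 2233 were lower (22.2%). Differences were at least 1 log2 unit in 470 of the higher and 546 of the lower genes. Counts in the gene lists below are to be read beside these shares of all genes. The median difference of the called genes was 0.67 for those that rose and -0.70 for those that fell, and the median SD of a gene was 0.18 within the mutant group and 0.16 within the wild-type group. Values of the 3 mutant arrays lay wholly above those of the 3 wild-type arrays for 2410 genes (24.0%) and wholly below for 2549 (25.4%). The split of calls into higher and lower depends on the scaling: rises made up 47.9% of calls here, 66.8% with the values as deposited and 72.9% with each array scaled to 1 common 75th percentile. Those scalings moved the median of all genes from 0.01 to 0.125 and 0.178. Another probe was measured for 1959 called genes, and 2297 of those 3033 probes had the sign of the probe used (75.7%). Of the genes named below, Cd22 (-0.34), Egr3 (0.01), Hsd17b7 (-0.13), Itpkb (-0.12 and -0.05), Ndufab1 (0.08), Atp5pb (0.33 and 0.06), Tyms (0.07 and 0.09), Bcl2a1d (-0.53), Bcl2l1 (0.39), Cd79b (-0.17), H2-Oa (-0.90), Prf1 (0.20) and Rplp0 (-0.08) had another probe that was not called. So had Dnajb6 (0.15 and 0.13), Ebf1 (-0.39), Hspa8 (0.07), Id2 (0.47), Rpl21 (-0.13 and -0.14), S1pr2 (0.06) and Trp53bp1 (0.19), and others where it is said.

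**Figure D1:**
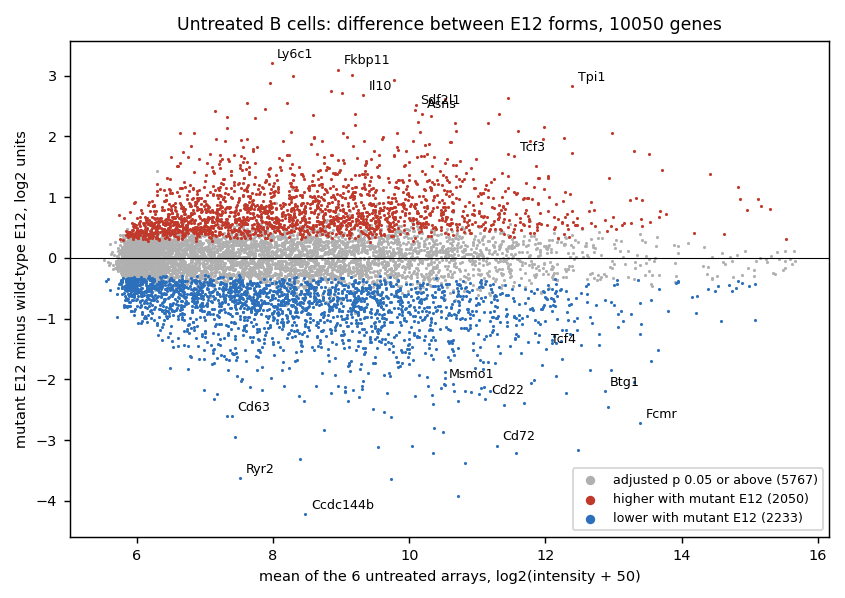
Difference between the forms (mutant minus wild-type E12, log2 units) against the mean level over the 6 untreated arrays, log2(intensity + 50), for 10050 genes; each point is a gene, red if called higher (2050), blue if called lower (2233), grey if not called. The labelled falls reach further from 0 (-4.22 for Ccdc144b) than the labelled rises (3.20 for Ly6c1).

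The gene carried by the retrovirus was measured first. Tcf3 had log2 levels of 11.90, 12.31 and 12.93 with mutant E12, against 10.50, 10.61 and 11.01 with wild-type E12. Every mutant array was above every wild-type array, and the difference was 1.68 ± 0.35 (SE, n = 3 per group; limma adjusted p = 0.00153). A second Tcf3 probe differed by 1.65. The position of either probe in the insert could not be checked, and RNA from the insert and from the remaining Tcf3 gene cannot be told apart. The groups differed in form and in the level of Tcf3 RNA together. With the values as deposited the difference was 2.44 and with the 75th percentile scaling 2.54.

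The other E proteins and their inhibitors moved in different directions. Tcf4, which encodes the E protein E2-2, was at 10.99, 11.04 and 11.74 with the mutant and at 12.85, 12.81 and 12.59 with wild type, a fall of 1.50 ± 0.18 log2 units (adjusted p = 2.03e-05). The arrays of the groups did not overlap. Tcf12, which encodes HEB, was called higher by 0.48 on its brighter probe, but a second probe was lower by 0.77 (-0.77, adjusted p = 0.00166), so its direction is not settled. Id2 differed by -0.22 and Id3 by -0.50, and neither passed the test (adjusted p = 0.346 and 0.0762). Id2 changed sign to 0.05 and 0.14 under the deposited and the 75th percentile scalings.

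Of 21 measured genes that E2A is known to bind or activate in lymphocytes, 3 rose and 7 fell, against 20.4% and 22.2% of all genes. The median was -0.16, against 0.01 over all genes. It was 0.06 with the values as deposited and 0.15 with the 75th percentile scaling. Vpreb3, a surrogate light chain relative expressed in B lineage cells, rose by 1.34 ± 0.16 (adjusted p = 1.61e-05). Its log2 levels were 12.28, 12.17 and 11.91 with the mutant, against 10.66, 10.89 and 10.79 with wild type. The Notch target Hes1 rose by 0.88 ± 0.19. Irf8, a transcription factor of B cells and myeloid cells, was at 10.15, 9.90 and 9.64 with the mutant and at 12.19, 12.08 and 12.15 with wild type, and fell by 2.24 ± 0.14 (adjusted p = 6.10e-08). Mef2c, a factor that acts below the antigen receptor, fell by 1.04 ± 0.18, a call that was lost with the deposited values (-0.19) and with the 75th percentile scaling (-0.08). Cd79b, a signalling chain of the antigen receptor, fell by 0.65 ± 0.14 here, but was higher by 0.27 and 0.38 under those scalings. Ebf1, the B lineage partner of E2A, differed by -0.40 (adjusted p = 0.0276), a call that was lost with the deposited values (-0.32), with the 75th percentile scaling (-0.24), without mutant replicate 1 (-0.35), without mutant replicate 2 (-0.34) or without wild-type replicate 3 (-0.36). Cd79a and Pax5 were not analysed here.

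The genes with the largest rises included several of secretory and surface function. Ly6c1, a surface protein found on plasma cells among others, was at 10.03, 9.48 and 9.24 with the mutant, against 6.67, 6.19 and 6.27 with wild type (3.20 ± 0.32, adjusted p = 3.95e-06). Tg, the thyroglobulin gene, rose by 3.00 ± 0.19, Ctla4, a CD28 relative that restrains T cells, by 2.99 ± 0.37, Oosp1 by 2.94 ± 0.21 and Pinlyp by 2.88 ± 0.21. Ctla4 was at 9.41, 9.66 and 10.30 with the mutant and at 7.81, 6.25 and 6.33 with wild type, so that wild-type replicate 1 lay above its fellows but below each mutant array. The phosphatase gene Plpp5 rose by 2.72 ± 0.17, Edem2, which marks misfolded glycoproteins for disposal, by 2.62 ± 0.16 and H2-Q8, a class I histocompatibility gene, by 2.62 ± 0.20. H2-Q8 belongs to a family of near-identical genes, so its signal may come from others of that family.

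The genes with the largest falls, clone-like symbols left out, were Ccdc144b, Hivep3, Ryr2, Rhbdl2, Lbh, Erich5, Snn, Zxda, Zfp318, Cd72, Chst3 and Serpinb6b. Ccdc144b was at 6.31, 6.35 and 6.45 with the mutant and at 10.70, 10.53 and 10.52 with wild type (-4.22 ± 0.16, adjusted p = 1.38e-09). Ryr2, a calcium release channel of the ER, passed the detection limit on 0 of 3 mutant arrays, with log2 levels of 5.67, 5.74 and 5.69, against 9.11, 9.54 and 9.33 with wild type. Set against that limit it was at least 9.73-fold lower with the mutant. Zfp318, a factor needed for surface IgD on mature B cells, was at 8.46, 8.36 and 8.67 with the mutant and at 11.87, 11.49 and 11.41 with wild type (-3.10 ± 0.16). Lbh, a transcriptional cofactor, fell by 3.20 ± 0.23. Hivep3 fell by 3.64 on its brightest probe and by 0.57 and 0.36 on the others (-0.57 and -0.36), and Snn fell by 3.16 on its brightest probe against -1.06, -0.34 and -0.19 on the others, so the size of these falls depends on the probe.

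Genes of the antigen receptor and its proximal signalling were lower as a group. Of 27 measured members 19 fell, against 22.2% of all genes, and 2 rose, and the median was -0.65, against 0.01 over all genes. The fall is clearest relative to other genes: with the deposited values 11 members fell and the median was -0.13, and with the 75th percentile scaling 8 fell, 6 rose and the median was -0.03. The Tec-family kinase Tec was at 8.45, 8.60 and 8.85 with the mutant and at 9.99, 10.57 and 10.53 with wild type (-1.73 ± 0.20, adjusted p = 1.36e-05). Blk, a Src-family kinase of B cells, was at 11.35, 11.52 and 11.34, against 12.66, 13.30 and 13.25 with wild type (-1.66 ± 0.15), while a second Blk probe differed by -0.19 and was not called. Pik3ap1 (BCAP), the adaptor that brings PI3 kinase to the receptor complex, fell by 1.48 ± 0.15, with a second probe at -0.51 that was not called. Prkcb, the protein kinase C form that couples the receptor to NF-kB, fell by 1.38 ± 0.18, a call that was lost with the 75th percentile scaling (-0.43). The mutant arrays were below all wild-type arrays for each of these genes. Named after their values were seen, Btk, the kinase mutated in X-linked agammaglobulinaemia, fell by 1.19 ± 0.16, Syk, which starts the signal, differed by -0.02 (adjusted p = 0.901), and the adaptors Blnk and Dapp1 were the members that rose (0.74 and 0.79).

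Inhibitory coreceptors and phosphatases, which damp the antigen receptor signal, were also lower. Of 17 measured members 10 fell, against 22.2% of all genes, and 1 rose, against 20.4%, with a median of -0.78; the median was -0.55 with the deposited values and -0.47 with the 75th percentile scaling. Cd72, an inhibitory lectin of B cells, was at 10.14, 9.40 and 9.67 with the mutant and at 12.10, 13.23 and 13.15 with wild type (-3.09 ± 0.27, adjusted p = 1.07e-06). Cd22, a sialic acid-binding inhibitory receptor, was at 10.25, 9.73 and 9.89, against 12.04, 12.37 and 12.42 with wild type (-2.32 ± 0.22, adjusted p = 2.72e-06). Btla was at 9.49, 9.32 and 9.38, against 11.57, 11.61 and 11.44 with wild type (-2.15 ± 0.11). In all 3 genes the groups were far apart relative to the spread between arrays. Ptpn6 (SHP-1), the phosphatase recruited by Cd22 and Cd72, fell by 2.06 ± 0.16. Fcgr2b, the inhibitory Fc receptor and the member that rose, was named after its value was seen (0.66 ± 0.22, adjusted p = 0.0261); without mutant replicate 3 no member of this list was called higher (0 of 17).

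E12 binds E-boxes, written CANNTG, and prefers CAGCTG and CAGGTG, which are forms of it; both strands were searched in RefSeq promoters of GRCm38.p6, 250 bases before to 50 after each start. The promoters of 2 strongly lowered genes are shown because they hold such letters, which are in capitals (CACCTG is CAGGTG read on the other strand). Fcmr, the IgM Fc receptor, lies on the plus strand with its window at chr1:130865527-130865826, and Cd22 on the minus strand with its window at chr7:30878979-30879278.
Fcmr: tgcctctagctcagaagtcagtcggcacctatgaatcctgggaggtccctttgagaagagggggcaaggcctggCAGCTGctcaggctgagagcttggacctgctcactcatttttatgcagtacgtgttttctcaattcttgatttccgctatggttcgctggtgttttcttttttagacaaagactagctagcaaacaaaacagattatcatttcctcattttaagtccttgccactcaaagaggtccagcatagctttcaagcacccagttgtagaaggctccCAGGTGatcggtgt
Cd22: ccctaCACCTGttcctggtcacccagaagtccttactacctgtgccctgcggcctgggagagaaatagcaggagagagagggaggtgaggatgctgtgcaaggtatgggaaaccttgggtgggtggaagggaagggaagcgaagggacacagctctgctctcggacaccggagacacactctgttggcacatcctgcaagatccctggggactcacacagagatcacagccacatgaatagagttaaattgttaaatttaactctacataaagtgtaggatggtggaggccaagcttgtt

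Such letters were about as frequent in promoters of called genes as in others. CAGCTG or CAGGTG stood in 32.9% of 1679 promoters of genes that rose, in 34.4% of 1802 promoters of genes that fell, in 33.7% of the 8197 promoters of tested genes and in 35.9% of all 27025 promoters. Among the antigen receptor and proximal signalling genes 13 of 23 promoters held either form (56.5%), and among the inhibitory genes 6 of 14 (42.9%). The share was 44% (11 of 25) in the glycolysis and hypoxia-inducible list, which rose, and 36.8% (7 of 19) among the genes associated with E2A. In the ER list it was 32% and in the ATF4 list 31%. These are counts of letters in a short window and describe no binding.

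B cell markers were detected, as the label requires, and were lower with the mutant. Of 12 measured markers 11 fell, against 22.2% of all genes, and 0 rose, against 20.4%. The 12th, Fcrla, differed by 0.20. With the deposited values 8 fell and 1 rose. Their summed intensity ranged from 27863 to 31258 on the mutant arrays and from 71116 to 95021 on the wild-type arrays. Fcmr was at 12.03, 12.01 and 12.03 with the mutant and at 14.68, 14.84 and 14.73 with wild type (-2.72 ± 0.12, adjusted p = 6.16e-09). Fcer2a (CD23), the low-affinity IgE receptor that IL-4 raises on B cells, was at 10.73, 10.39 and 10.37, against 12.09, 13.29 and 13.27 with wild type (-2.39 ± 0.28). Even after these falls Fcmr, Cd22, Cd72, Fcer2a and Cd79b were above the detection limit on every array.

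**Figure D2:**
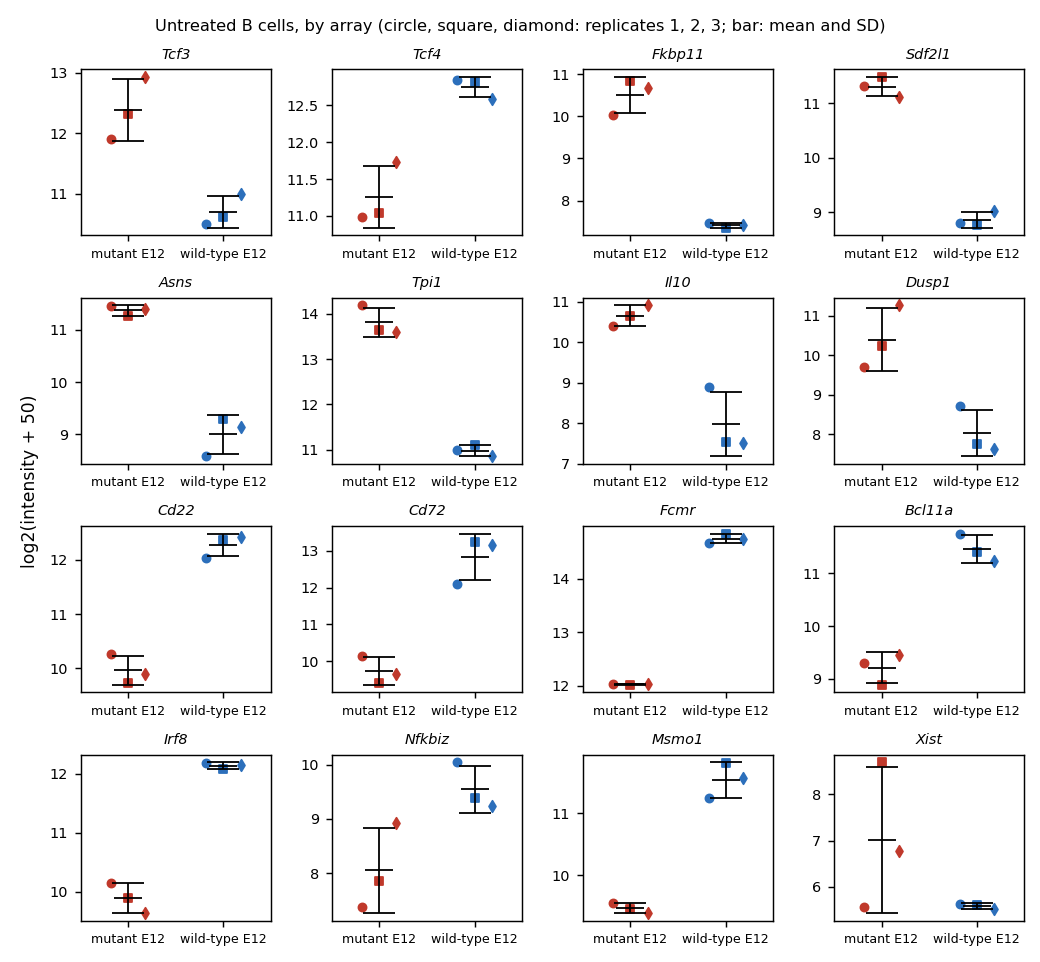
Log2(intensity + 50) of 16 genes on each array of untreated cells, mutant E12 left and wild-type E12 right in each panel; circles, squares and diamonds are replicates 1 to 3, bars the mean and SD, and each panel has its own vertical axis. The groups do not overlap in 15 of the panels. Most of these genes were chosen for their large differences, so nothing is read from that count. Over all genes the mutant arrays lay wholly above for 24.0% and wholly below for 25.4%. Xist, where mutant replicates 2 and 3 stand above the rest, is the other panel.

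Transcription factors of the B lineage fell with the mutant more often than they rose. Of 29 measured members 16 fell and 3 rose, against 22.2% and 20.4% of all genes, with a median of -0.56. With the deposited values 10 fell and 4 rose, and with the 75th percentile scaling 9 fell and 5 rose. Bcl11a, a zinc finger factor required for B cell development, was at 9.31, 8.89 and 9.45 with the mutant and at 11.75, 11.40 and 11.24 with wild type (-2.25 ± 0.20, adjusted p = 1.18e-06). Pou2f2 (OCT-2), which controls late B cell responses, was at 7.87, 7.82 and 8.20, against a mean of 10.17 ± 0.17 (SD, n = 3) with wild type (-2.20 ± 0.15). Bcl6, the repressor that holds the germinal centre state and blocks plasma cell formation, was at 8.71, 8.54 and 9.54, against 10.77, 10.76 and 10.66 with wild type (-1.80 ± 0.26). For all 3 genes the wild-type arrays were higher than any mutant array. Named after its value was seen, Irf4, which B cells and plasma cells share, differed by 0.56 and did not pass the test (adjusted p = 0.132).

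Plasma cell genes went the other way. Of 19 measured members 14 rose, against 20.4% of all genes, and 3 fell, with a median of 0.77. The prolyl isomerase Fkbp11, which folds secreted proteins, was at 10.02, 10.84 and 10.66 with the mutant and at 7.47, 7.36 and 7.41 with wild type (3.09 ± 0.18, adjusted p = 4.64e-08). Derl3, which moves misfolded proteins out of the ER, was at 8.88, 9.36 and 9.09, against 6.93, 6.62 and 6.43 with wild type (2.45 ± 0.18). The separation exceeded the spread between arrays many times over in both genes. Slpi, a secreted protease inhibitor and a member of the list, fell by 1.97 ± 0.30. Named after their values were seen, Prdm1 (BLIMP-1), the master regulator of plasma cells, rose by 0.86 ± 0.21, Xbp1, the factor that builds the secretory apparatus, by 0.77 ± 0.14, and Sdc1 (CD138), a plasma cell surface marker, by 0.77 ± 0.16. Mzb1, an ER helper of antibody assembly, rose by 1.17 ± 0.12 and Jchain, which joins antibody polymers, by 0.39 ± 0.12. The genes named here after their values were seen all rose. Of the 3 members that fell only Slpi is named here, and 2 members were not called.

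Genes of protein folding in the ER and of the unfolded protein response rose, the second of these being the programme that enlarges the ER when unfolded proteins accumulate. Of 29 measured members 22 rose, against 20.4% of all genes, and 0 fell, with a median of 0.72 that was 1.19 with the deposited values and 1.29 with the 75th percentile scaling; 17 rose when the arrays were limited to those with Xist at background. Edem1, which this list shares with the plasma cell genes, rose by 1.93 ± 0.42. Sdf2l1, a component of an ER chaperone complex, was at 11.32, 11.47 and 11.12 with the mutant and at 8.80, 8.76 and 9.03 with wild type (2.44 ± 0.14, adjusted p = 3.85e-08). Creld2, an ER stress-induced disulfide isomerase, was at 11.91, 12.28 and 12.60, against a mean of 10.04 ± 0.04 (SD, n = 3) with wild type (2.23 ± 0.17). Sec61b, part of the channel that takes new proteins into the ER, was at 11.08, 11.36 and 11.13, against 9.42, 8.84 and 9.09 with wild type (2.07 ± 0.15). All mutant arrays were above all wild-type arrays for these 3 genes. Hspa5 (BiP), the main ER chaperone, rose less, by 0.48 ± 0.13, and Hsp90b1 differed by 0.12 (adjusted p = 0.724); both were named after their values were seen.

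The ER stress element, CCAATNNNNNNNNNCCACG, is the site through which ATF6 and XBP1 act in ER genes. It was found on either strand in 7 of 25 promoters of this list (28%), in 0.159% of the promoters of tested genes and in 0.137% of all promoters. It stood in 7 of 1679 promoters of genes that rose, members of this list among them, and in 1 of 1802 of genes that fell. The members Calr (0.53) and Hsp90b1 (0.12) hold it too, were not called and are not shown. Sites of the others are shown because members that hold the same element differed in response, and capitals mark its fixed letters. They are from Creld2 (2.23, minus strand, chr15:88819520-88819538), Dnajc3 (1.37 ± 0.24, plus strand, chr14:118937827-118937845), Pdia6 (0.79, plus strand, chr12:17266491-17266509), Hspa5 (0.48, plus strand, chr2:34772025-34772043) and Syvn1 (-0.11, not called, plus strand, chr19:6046532-6046550).
Creld2: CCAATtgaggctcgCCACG
Dnajc3: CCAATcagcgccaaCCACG
Pdia6: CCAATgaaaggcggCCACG
Hspa5: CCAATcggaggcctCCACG
Syvn1: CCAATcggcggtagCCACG

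ATF4 is the factor that answers amino acid shortage and ER stress by raising amino acid synthesis, uptake and tRNA charging. Of 34 measured genes of this response 26 rose, against 20.4% of all genes, and 1 fell, against 22.2%, with a median of 0.53. Without mutant replicate 3 the number that rose was 19. Asns, the asparagine synthetase, was at 11.45, 11.26 and 11.39 with the mutant and at 8.58, 9.29 and 9.13 with wild type (2.37 ± 0.16, adjusted p = 1.20e-07). Chac1, a glutathione-degrading enzyme, was at 10.27, 10.79 and 10.70, against 8.99, 8.39 and 8.48 with wild type (1.96 ± 0.20). Trib3, a pseudokinase that feeds back on ATF4, rose by 1.68 ± 0.17. None of these genes overlapped between the groups. The glutamine transporter gene Slc38a2 fell by 1.52 ± 0.28, and a second probe gave -1.60. Atf4 itself, named after its value was seen, differed by 0.05 ± 0.14 (adjusted p = 0.809).

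The amino acid response element, TGATGNAA, through which ATF4 and C/EBP factors act, was found on either strand in 10 of 29 promoters of this list (34.5%), in 2.9% of the promoters of tested genes and in 4.51% of all promoters. The list was made of genes of this response, so its share is not a result of these data. Over all called genes the element stood in 3.1% of promoters of those that rose and in 2.72% of those that fell. The 10 genes were all called higher, by 0.35 (Slc7a11) to 2.37 (Asns), beside 26 of 34 members of the list. Sites of the 3 members with the largest rises are shown with 5 bases on each side and the element in capitals: Asns (minus strand, chr6:7693220-7693237), Chac1 (minus strand, chr2:119351044-119351061) and Trib3 (plus strand, chr2:152344034-152344051).
Asns: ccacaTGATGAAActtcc
Chac1: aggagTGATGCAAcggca
Trib3: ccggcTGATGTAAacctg

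Glycolysis and hypoxia-inducible genes had the highest median of the lists, 1.02. Of 28 measured members 18 were higher and 1 lower, against 20.4% and 22.2% of all genes. The glycolytic enzyme gene Tpi1 was at 14.18, 13.64 and 13.59 with the mutant and at 10.98, 11.10 and 10.86 with wild type (2.83 ± 0.17, adjusted p = 5.57e-08). Egln3, a hydroxylase that marks HIF-1 for destruction and is itself HIF-induced, was at 9.99, 10.34 and 10.35, against 8.53, 6.95 and 6.96 with wild type (2.75 ± 0.34). Ankrd37 was at 10.39, 10.41 and 10.06, against 8.23, 7.97 and 8.12 with wild type (2.18 ± 0.15). In each gene the mutant arrays were higher, and in Egln3 wild-type replicate 1 lay between the groups. The pyruvate kinase gene Pkm rose by 2.06 ± 0.15, while a dim second probe of Pkm differed by 0.15. Named after their values were seen, the glucose transporter gene Slc2a1 rose by 2.00 ± 0.18 and Ldha, which makes lactate, by 1.31 ± 0.15, Hif1a RNA differed by -0.20 (adjusted p = 0.254), and Ndrg1 was the member that fell (-0.95 ± 0.20). The core of the hypoxia response element, ACGTG, stood on either strand in 21 of 25 promoters of this list (84%). Its share was 29.6% in promoters of tested genes, 31.4% for genes that rose, 28.4% for genes that fell and 21.8% in all promoters. ACGTG overlaps the E-box CACGTG and can overlap the CCACG of the ER stress element.

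**Figure D3:**
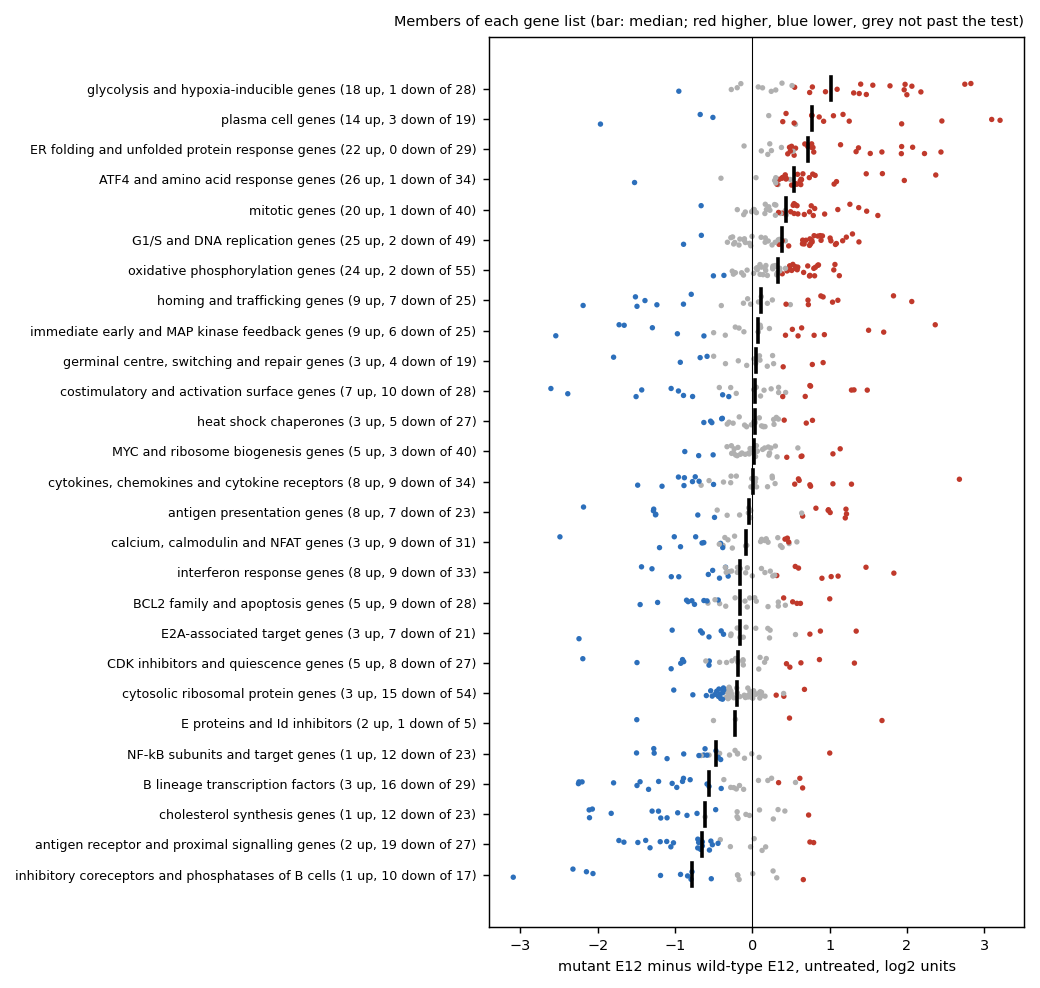
Difference between the forms (mutant minus wild-type E12, log2 units) of each measured member of 27 gene lists, with the list's median as a black bar; red members were called higher, blue lower and grey not called. Glycolysis, plasma cell, ER and ATF4 lists lie right of 0 and inhibitory coreceptors, antigen receptor, cholesterol and B lineage factor lists left of it; the medians near 0 change sign with the scaling, as the plot of list medians by scaling shows.

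Genes of cell division were higher. Of 49 measured G1/S and DNA replication genes 25 rose and 2 fell, with a median of 0.39. Of 40 mitotic genes 20 rose and 1 fell, with a median of 0.43. Among all genes 20.4% rose and 22.2% fell. Gins1, of the replicative helicase, was at 8.46, 8.30 and 8.23 with the mutant and at 6.71, 6.97 and 7.17 with wild type (1.38 ± 0.13, adjusted p = 3.07e-06). Chaf1b, which loads histones behind the fork, rose by 1.29 ± 0.16, the thymidylate synthase gene Tyms by 1.21 ± 0.25 and the helicase subunit gene Mcm3 by 1.17 ± 0.21. Among mitotic genes Cdca3 was at 11.95, 11.90 and 11.53 with the mutant and at 9.94, 10.40 and 10.18 with wild type (1.62 ± 0.17), and the anaphase activator gene Cdc20 was at 11.73, 11.55 and 11.66, against 9.99, 10.31 and 10.22 with wild type (1.48 ± 0.12). The mutant arrays exceeded all wild-type arrays in these genes. Plk1, a mitotic kinase, rose by 1.37 ± 0.14 and Birc5 (survivin), a chromosomal passenger, by 1.26 ± 0.16. Cdk2 and Pcna, named after their values were seen, were the G1/S genes that fell (-0.89 and -0.66).

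Genes that restrain division gave no common direction. Of 27 CDK inhibitor and quiescence genes 5 rose, a share near the 20.4% of all genes, and 8 fell, against 22.2%. The median of -0.19 changed sign to 0.02 with the deposited values and to 0.07 with the 75th percentile scaling. Btg1, an antiproliferative factor, was at 11.67, 11.54 and 12.11 with the mutant and at 14.13, 13.84 and 13.92 with wild type (-2.19 ± 0.21). Klf2, which keeps lymphocytes quiescent and controls their homing, was at 10.14, 9.94 and 9.58, against 11.30, 11.39 and 11.44 with wild type (-1.49 ± 0.14). Txnip, which limits glucose uptake, was at 12.42, 12.63 and 12.63, against 11.31, 11.19 and 11.22 with wild type (1.32 ± 0.19). Its rise stood beside the rise of Slc2a1.

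Oxidative phosphorylation genes rose in part: 24 of 55 measured members were higher and 2 lower, against 20.4% and 22.2% of all genes. Their median was 0.32. With the deposited values 45 were higher and 0 lower. Ndufb7, Ndufab1 and Ndufv1, subunits of complex I, rose by 1.12 ± 0.21, 1.07 ± 0.13 and 1.05 ± 0.12, and Atp5pb, of the ATP synthase, by 0.85 ± 0.15. The direction of cytosolic ribosomal protein genes depends on the scaling: 15 of 54 fell and 3 rose here, with a median of -0.20, while with the deposited values 43 rose and 0 fell, with a median of 0.61. Rpl23 fell by 1.02 ± 0.16 here, and Rplp0 rose by 0.67 ± 0.17. Genes of MYC and ribosome biogenesis were mostly not called (5 of 40 rose, 3 fell, median 0.02), with a median of 0.28 with the deposited values and -0.03 under cyclic loess. Srm, the spermidine synthase and a MYC target, rose by 1.13 ± 0.14, and Myc itself, named after its value was seen, differed by 0.16 (adjusted p = 0.585).

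Cholesterol synthesis genes were lower: of 23 measured members 12 fell, against 22.2% of all genes, and 1 rose, with a median of -0.61 that was -0.25 with the deposited values and -0.19 with the 75th percentile scaling; 9 fell and 4 rose with the deposited values, and 8 fell with the arrays at background for Xist. Hsd17b7 was at 7.89, 7.73 and 8.09 with the mutant and at 9.92, 10.11 and 10.01 with wild type (-2.11 ± 0.15, adjusted p = 2.52e-07). Msmo1, a sterol oxidase, was at 9.56, 9.45 and 9.40, against 11.24, 11.81 and 11.57 with wild type (-2.07 ± 0.16). Sqle, the squalene epoxidase, was at 10.06, 10.04 and 10.41, against 12.05, 12.04 and 11.90 with wild type (-1.83 ± 0.14), while a second Sqle probe differed by -0.52 and was not called. The 3 genes encode enzymes of the sterol branch, and their groups were wholly apart on the probes used. Lss, the lanosterol synthase, fell by 2.11 ± 0.21 on its bright probe, while a dim probe differed by 0.00. Insig1, which holds the sterol-sensing machinery in the ER, was the member that rose (0.73 ± 0.17) and was named after its value was seen.

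NF-kB subunits, inhibitors and targets fell more often than they rose. Of 23 measured members 12 fell and 1 rose, against 22.2% and 20.4% of all genes, with a median of -0.47. With the 75th percentile scaling 8 fell, 4 rose and the median was -0.27. Nfkbiz, a nuclear cofactor of NF-kB, was at 7.37, 7.86 and 8.91 with the mutant and at 10.04, 9.38 and 9.23 with wild type (-1.50 ± 0.33, adjusted p = 0.00216). The inhibitor gene Nfkbie was at 8.49, 8.28 and 8.42, against 9.66, 9.59 and 9.77 with wild type (-1.28 ± 0.12). Nfkbid fell by 1.27 ± 0.25 and the subunit gene Rel (c-Rel) by 1.10 ± 0.13. Mutant replicate 3 lay nearest to wild type in Nfkbiz, and in Rel it lay farthest.

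Calcium, calmodulin and NFAT genes were mixed: 3 of 31 measured members rose and 9 fell, against 20.4% and 22.2% of all genes. The median was -0.09, and it was 0.13 with the deposited values and 0.22 with the 75th percentile scaling. Nfat5, the NFAT relative that answers osmotic stress, was at 8.02, 7.92 and 8.73 with the mutant and at 11.24, 10.52 and 10.38 with wild type (-2.49 ± 0.24, adjusted p = 2.73e-06). Nfatc1, a calcineurin-dependent factor, fell by 1.20 ± 0.24 on its brightest probe; of its 5 other probes 1 fell (-1.22) and 4 were not called. Ppp3ca, the catalytic chain of calcineurin, fell by 1.01 ± 0.28, a call that was lost with the deposited values (-0.40), with the 75th percentile scaling (-0.30) and without mutant replicate 1 (-0.72). Itpkb, which turns over the calcium messenger IP3, fell by 0.93 ± 0.13. Calm2, 1 of the calmodulin genes, was named after its value was seen and differed by 0.12 ± 0.17 (adjusted p = 0.598).

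Immediate early and MAP kinase feedback genes held both rises and falls: 9 of 25 rose, against 20.4% of all genes, and 6 fell, a share near the 22.2% of all genes, with a median of 0.08. Dusp1, a phosphatase that turns off MAP kinases, was at 9.69, 10.22 and 11.26 with the mutant and at 8.70, 7.75 and 7.63 with wild type (2.36 ± 0.40, adjusted p = 0.000327). Fos, of the AP-1 factor, was at 9.16, 9.13 and 10.87, against 8.66, 7.69 and 7.72 with wild type (1.70 ± 0.41). In both, mutant replicate 3 was the highest array and wild-type replicate 1 the highest of its group. Egr3, a factor induced through calcineurin and NFAT, was at 8.12, 7.81 and 9.15, against 11.42, 10.73 and 10.56 with wild type (-2.54 ± 0.34). Spred1, an inhibitor of the RAS pathway, fell by 1.72 ± 0.17 and passed the detection limit on 2 of 3 mutant arrays.

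Among cytokines and their receptors 8 of 34 rose and 9 fell, shares near those of all genes (20.4% and 22.2%). Il10, which encodes an anti-inflammatory cytokine of activated and regulatory B cells, was at 10.40, 10.66 and 10.91 with the mutant and at 8.91, 7.53 and 7.51 with wild type (2.68 ± 0.33, adjusted p = 2.29e-05). All mutant arrays were higher, and wild-type replicate 1 was the nearest to them. Jak1, a cytokine receptor kinase, fell by 1.48 ± 0.12 and Il12a, the p35 chain of interleukin 12, by 1.17 ± 0.12. The lymphotoxin gene Ltb was called higher (1.28 ± 0.47, adjusted p = 0.0409), but its arrays overlapped between the groups and the call was lost under 10 alternatives, among them both other offsets, no detection filter, the untreated arrays alone and the arrays at background for Xist. Without wild-type replicate 1 the difference was 0.60, without mutant replicate 1 it was 1.22 and without mutant replicate 2 it was 1.09.

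Surface molecules of costimulation and activation included 7 of 28 genes that rose, a share near the 20.4% of all genes, and 10 that fell, against 22.2% of all genes. Cd63, a tetraspanin of late endosomes, was at 6.25, 6.14 and 5.88 with the mutant and at 8.13, 8.99 and 8.97 with wild type (-2.61 ± 0.19, adjusted p = 2.77e-07). It passed the detection limit on 2 of 3 mutant arrays. Other Cd63 probes differed by -0.72 and -1.07, so the size of its fall depends on the probe. Cd86, which costimulates T cells, was at 9.91, 9.32 and 9.46, against 8.14, 8.10 and 7.99 with wild type (1.49 ± 0.22). Slamf1, a self-ligand receptor, fell by 1.50 ± 0.20. Of 25 homing and trafficking genes 9 rose and 7 fell, against 20.4% and 22.2% of all genes. Ccr6, a chemokine receptor of mature B cells, was at 9.49, 9.94 and 9.75 with the mutant, against 11.87, 11.86 and 12.03 with wild type (-2.19 ± 0.21), and Selplg, the selectin ligand PSGL-1, was at 10.41, 11.01 and 10.76, against 9.06, 8.89 and 8.75 (1.82 ± 0.21). Cxcr3, a chemokine receptor induced by T-bet, was at 8.56, 6.96 and 7.48 with the mutant and below the detection limit on all wild-type arrays. It was at least 3.24-fold higher, counted against that limit.

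Antigen presentation genes divided by class, a division made after the values were seen. Of 9 class I and peptide-loading genes 8 rose and 0 fell. Of 13 class II genes and their partners 0 rose and 7 fell. Among all genes 20.4% rose and 22.2% fell. Over the whole list of 23 the median was -0.05, against 0.79 with the deposited values, where 15 rose and 3 fell. Ciita, the master regulator of class II, was at 9.60, 9.40 and 9.69 with the mutant and at 11.33, 11.96 and 11.95 with wild type (-2.18 ± 0.20, adjusted p = 2.14e-06). Ctss, a protease that trims the invariant chain, fell by 1.28 ± 0.16. H2-Oa and H2-Ob, chains of the brake on peptide loading, fell by 1.28 ± 0.30 and 1.25 ± 0.16, calls that were lost with the 75th percentile scaling (-0.44 and -0.31).

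Interferon response genes showed no common direction: 8 of 33 rose and 9 fell, shares near those of all genes (20.4% and 22.2%). Their median was -0.16, and it was 0.06 with the deposited values. Isg20, an RNA exonuclease, rose by 1.83 ± 0.14 and Bst2 (tetherin), which holds virus particles at the cell surface, by 1.47 ± 0.22. Mx2, an antiviral GTPase, passed the detection limit on 0 of 3 mutant arrays and was at least 2.56-fold lower, and Stat2, of the interferon signal, fell by 1.30 ± 0.17. Of 28 BCL2 family and apoptosis genes 5 rose, a share near the 20.4% of all genes, and 9 fell, against 22.2%. Their median was -0.16, and it was 0.19 with the deposited values. Bcl2l1 (BCL-XL), a survival factor, rose by 1.00 ± 0.19, while Bcl2a1d, Bcl2a1b and Bid fell by 1.45 ± 0.20, 1.23 ± 0.19 and 0.85 ± 0.15. Bcl2a1d and Bcl2a1b are near-identical copies whose probes may share signal, and Bcl2a1b was not called with the deposited values (-0.45).

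Some markers of other cells were measured and moved with the form, while defining ones were not above the detection limit. Beside the small counts that follow stand the 20.4% of all genes that rose and the 22.2% that fell. Of 10 measured markers of macrophages, monocytes and neutrophils, out of 24 with a probe, 5 fell and 0 rose, and their summed intensity was 622 to 786 on mutant arrays and 1067 to 2886 on wild-type arrays. Lyz1 was at 7.07, 6.97 and 7.28 with the mutant and at 10.45, 8.59 and 8.62 with wild type (-2.11 ± 0.40), and Adgre1 (F4/80) was at least 4.07-fold lower. Csf1r, Itgam and Mpo were not above the limit on 3 arrays. T cell markers summed to 2547 to 2741 on mutant arrays and 1260 to 1925 on wild-type arrays, with Cd3d, Cd3e and Cd3g not above the limit on 3 arrays, and 1 of 7 measured rose (Cd2, 0.79). Bcl11b was called lower but passed the limit on 0 of 3 mutant arrays, which bounds its fall at 1.04-fold or more, and its call was lost without mutant replicate 1 or wild-type replicate 2. NK and cytotoxic markers summed to 735 to 1627 on mutant arrays and 3837 to 5881 on wild-type arrays. The perforin gene Prf1 was at 10.60, 10.01 and 9.52 with the mutant, against 12.52, 11.91 and 12.06 with wild type (-2.13 ± 0.38), Il2rb rose by 0.61, and Ncr1 was not above the limit on 3 arrays. Of 7 dendritic cell markers 3 rose and 2 fell, among them Siglech (-1.31), Irf8 and Batf3, which was at least 2.56-fold higher. Of 5 erythroid and 3 stromal markers limma called 0 on the probes used. Car2 (-0.39) and Pecam1 (-0.40) had an unadjusted p under 0.05, and other Pecam1 probes were called lower (-0.42 and -0.70). The part of these cells in the differences was not tested.

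The same comparison after anti-IgM shares no array with that of the untreated cells, but shares the separate normalization by form. It may also not be independent, since Xist followed the replicate number on the mutant arrays in both states. There 21.3% of genes were higher with the mutant and 22.2% lower. Of the 2050 genes that rose in untreated cells 1408 also rose after anti-IgM (68.7% of that list, and 65.9% of the list after anti-IgM) and 29 fell. Of the 2233 that fell 1402 also fell (62.8% of each list) and 36 rose. The glycolysis gene Tpi1 differed by 2.60 after anti-IgM, Fkbp11 by 2.55, Sdf2l1 by 2.27, Cd72 by -3.11, Fcmr by -2.31 and Msmo1 by -1.88, each close to its difference in untreated cells.

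The difference between the forms itself differed between the states for 698 genes (6.95%), by the interaction term, of which 424 were called in untreated cells (9.9% of the 4283). That count was 385 with the deposited values, 373 without wild-type anti-IgM replicate 1, 427 without mutant untreated replicate 2 and 40 with the arrays at background for Xist. Among those that rose in untreated cells 103 of 156 were closer to 0 after anti-IgM, and among those that fell 197 of 268. Because these genes were chosen by their call in untreated cells, the choice itself favours a smaller difference in the other state, and nothing is read from these counts. Srm was the named gene that turned most: 1.13 in untreated cells and -0.96 after anti-IgM (difference -2.10, adjusted p = 9.25e-05). Ccr6 differed by -2.19 and then by -0.20, Klf2 by -1.49 and then by 0.08, and Cd22 by -2.32 and then by -0.81. Cd63 differed by -2.61 and then by -4.25 on the probe used.

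**Figure D4:**
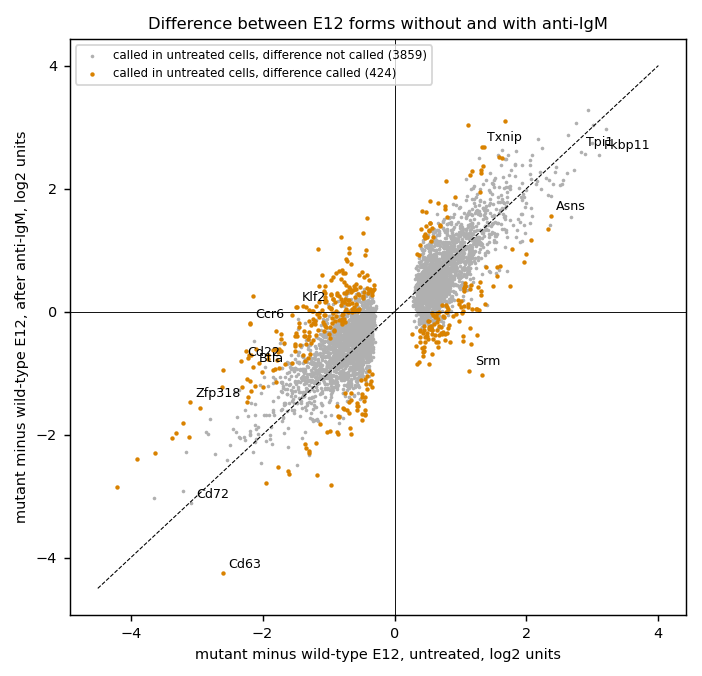
Difference between the forms after anti-IgM (vertical) against that in untreated cells (horizontal), both mutant minus wild-type E12 in log2 units, for the 4283 genes called in untreated cells; orange marks the 424 genes whose difference between the states was called, and the dashed line marks equality. Most points lie in the lower left and upper right quadrants, and Srm, Klf2 and Ccr6 lie away from the line.

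**Figure D5:**
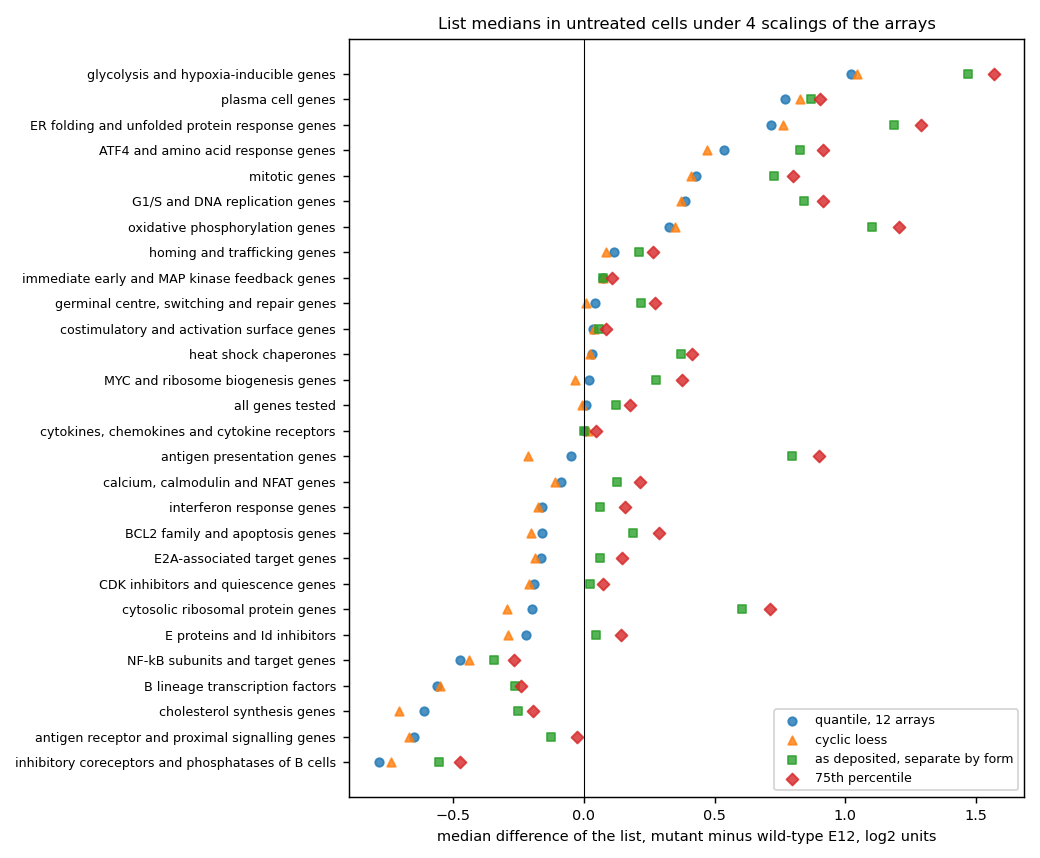
Median difference of each gene list and of all genes (mutant minus wild-type E12, untreated, log2 units) under 4 scalings of the arrays, shown by marker shape. The sign of the median was the same under all 4 for 18 of 27 lists, and it changed for 9 lists, among them cytosolic ribosomal protein (-0.20 and 0.61) and antigen presentation genes (-0.05 and 0.79).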

How the data were processed

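Mouse RNA was hybridised to Illumina bead arrays. The authors deposited linear, background-subtracted intensity values per probe, in which the array distributions show a quantile normalization made separately for each form; the software is not given in the sources used here. Another table holds 12 sample columns whose names match no label, and these were not used. Here the 12 arrays were put through a joint quantile normalization, and the scale used is log2(value + 50). A probe was kept where it passed the array's detection limit on 3 or more arrays. No detection p-values were used: the limit was set at p 0.01 of a normal background centred on 0, from the spread of values below 0. It was 12.9 on untreated wild-type replicate 1 (18116 probes above) and 15.6 on untreated mutant replicate 1 (16671 probes above). Counts of mutant arrays above the limit thus rest on a higher limit. The platform annotation gave 1 gene symbol to 34885 of the 45281 probes, several to 18 and none to 10378; the probe with the highest mean stood for its gene, leaving 10050 genes. The 4 group means were fitted in limma 3.58.1 (R 4.3.3; lmFit and eBayes, 8 residual degrees of freedom), with Benjamini-Hochberg adjustment across the genes and a threshold of 0.05. The offset of 50 makes the differences of dim genes smaller, and quantile normalization removes shifts shared by all genes. The number of arrays limits the precision.

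Replicate numbers did not pair mutant with wild-type arrays: the deviations of same-numbered untreated arrays correlated at -0.28, 0.07 and -0.27. Within the mutant form Xist followed the number. It was at 5.56, 8.69 and 6.78 in untreated cells and at 5.58, 9.12 and 6.56 after anti-IgM. The fit took no account of such pairing between the states. Named genes were E proteins, Id and selected B cell genes, the 12 largest rises and 12 largest falls whose arrays did not overlap, and up to 4 called members of each of 34 lists (7 of them cell markers), or, in the erythroid and stromal marker lists, where none was called, the 2 with the smallest p; genes named otherwise are said to be. The members and lists were chosen with earlier results of these data known. Of 1025 listed genes 791 were tested, 89 had no named probe and 145 were below the limit. "At least" folds set the bright group against the detection limit. The same fit was run on simulated data with independent noise and 200 changed genes among 10050. It recovered 18 of 66 genes changed by 0.5 log2 units, 66 of 67 changed by 1 and 67 of 67 changed by 2, with 10 false calls. Far more genes were called in the data (4283), so these rates need not hold there. Alternatives were other scalings, offsets, filters, probe rules, array weights, a replicate block and leaving out arrays.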

Additional observations from a re-analysis of the deposited data

Results flagged for a closer look

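For 37 of the named genes the difference between mutant and wild-type E12 itself differed between cells with and without anti-IgM (limma interaction term, adjusted p from 9.25e-05 to 0.0487). The values in parentheses are the difference after anti-IgM minus that in untreated cells, in log2 units. The named genes were mostly chosen by their difference in untreated cells, which itself favours a smaller difference after anti-IgM. Genes that were lower with the mutant in untreated cells, with a smaller difference after anti-IgM, were Ccr6 (1.99), Zfp318 (1.63), Bcl11a (1.60), Klf2 (1.57), Cd22 (1.51), Pou2f2 (1.50), Bcl6 (1.47), Erich5 (1.40), Ccdc144b (1.37), Rhbdl2 (1.32), Btla (1.24), Ptpn6 (1.23), Sesn1 (1.20), Il12a (1.14), Zxda (1.06), Prkcb (1.06), Ciita (1.06), Dock8 (0.99), Stat2 (0.91), Siglech (0.87), Cd79b (0.80) and Irf8 (0.77). Adgre1 (1.46), Ryr2 (1.33) and Mx2 (0.90) also passed the test, but each was above the detection limit on 0 of 3 untreated mutant arrays, so that these are fitted values and the size of the change was not measured. Receptors and phosphatases that damp the antigen receptor signal (Cd22, Btla, Ptpn6) and B lineage factors (Bcl11a, Pou2f2, Bcl6) are among them. Genes that were higher with the mutant, with a smaller difference after anti-IgM, were Dnajb6 (-0.78), Asns (-0.81), Pkm (-0.90), Cd86 (-1.07), Chac1 (-1.16) and Srm (-2.10). The difference was larger in size after anti-IgM for Txnip (1.37), Pecam1 (1.24), Vpreb3 (1.03), Cdca3 (0.87), Rrp12 (-0.95) and Cd63 (-1.65). The sign of the difference changed in 6 genes: Klf2, Pecam1, Sesn1, Cd79b, Dnajb6 and Srm. Pecam1 was not called in untreated cells on the probe used, while its other probes were called lower (-0.42 and -0.70). Cd79b also changed sign with the scaling of the arrays.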

How the results depend on the processing

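The count of genes called in untreated cells was 4283 and ranged from 3384 (without mutant replicate 2) to 4485 when 1 array was left out, with 1600 to 2189 higher and 1784 to 2328 lower. The scaling moved the direction of calls: 3241 genes were higher with the deposited values and 3635 with the 75th percentile scaling, where 1352 were lower. Of the deposited-value calls 3498 were shared with the same direction and 25 were opposite. The replicate block rests on numbers that did not pair mutant with wild-type arrays. It gave 4288 calls, 4153 of them shared. In their deviations 0 of 6 untreated arrays correlated best with the same-numbered array of the other form. Tcf3 stayed past the threshold under every alternative run, from 1.40 to 1.91 when 1 array was left out. Calls after anti-IgM ranged from 3574 to 4728 with 1 array left out. The count of genes whose difference differed between the states (698) depended most on the setting: 385 with the deposited values, 348 with the 75th percentile scaling, 385 with cyclic loess, 463 with an offset of 16, 2327 with array weights and 40 with the arrays at background for Xist, an alternative added after seeing the data. With 1 array left out it ranged from 373 to 809, and it was 373, 428 and 454 without wild-type anti-IgM replicates 1, 2 and 3 and 427 without mutant untreated replicate 2. Signs changed with the deposited values for Cct4 (0.37), Cd79b (0.27), Hspa8 (0.28), Id2 (0.048), Npm1 (0.11), Rpl21 (0.14) and Rps3a1 (0.19), and with the 75th percentile scaling for the same genes (0.48, 0.38, 0.39, 0.14, 0.21, 0.25 and 0.29 in that order). They also changed with the mean of all probes for Id2 (0.13) and Tcf12 (-0.14), and for Vim with array weights (-0.27) and without wild-type replicate 1 (-0.28; up to 0.34 without the others). Of 141 named genes other than Tcf3, 135 were called and 112 kept their call under every alternative run. The cause of these changes was not tested. A background correction of the non-normalized table (neqc) was not run, since its columns match no label. Where a group is above the detection limit on none of its arrays, its fitted differences have no measured size.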

Other observations

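Heat shock chaperones and genes of germinal centres, switching and DNA repair were mostly not called in untreated cells. Of 27 cytosolic and mitochondrial chaperone genes 3 rose and 5 fell, against 20.4% and 22.2% of all genes. The median was 0.03, while with the deposited values 12 rose and 1 fell. Dnajb6 rose by 0.78 and the mitochondrial chaperone gene Trap1 by 0.70. Other Dnajb6 probes differed by 0.90, which was called, and by 0.15 and 0.13, which were not. The constitutive chaperone gene Hspa8 was lower by 0.63 here (-0.63) and higher by 0.28 with the deposited values. Of 19 germinal centre, switching and repair genes 3 rose and 4 fell, with a median of 0.04. Neither list exceeded the shares of all genes. Among them S1pr2, which confines cells to germinal centres, rose by 0.91 and the end-joining gene Xrcc6 by 0.77. Trp53bp1, another repair gene used in class switching, fell by 0.93. Another probe of S1pr2 (0.06) and another of Trp53bp1 (0.19) were not called.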
